A study of Mus musculus with 26 samples.

Results

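The leukocytes described here are the barcodes of 2 single-cell libraries of mouse skin in which at least 3 of 7 leukocyte genes (Ptprc, Coro1a, Cd52, Laptm5, Tyrobp, Fcer1g and Cd74) had at least 1 UMI, the unit in which a captured RNA molecule is counted. They numbered 211 of the 23153 barcodes that held at least 500 genes and at most 10% of UMIs in mitochondrial genes. The mice carried Prrx-Cre, a Cre recombinase under control of Prrx1, a transcription factor gene of limb and ventral mesenchyme, and cells were sorted as Prrx1-positive (PPF) or Prrx1-negative (PNF) fibroblasts. For the single-cell assay, 8 samples of postnatal skin (PPF or PNF, caudal or ventral, unwounded or wounded) were marked with hashtag antibodies, pooled and run in 2 tubes. The labels call both tubes fibroblasts of ventral skin, and the sources used here state neither the sorting gates nor which hashtag stands for which sample. A tube is therefore 1 sample, conditions could not be compared, and intervals on single-cell values cover counting error only. A further 24 bulk RNA-seq libraries of sorted ventral skin fibroblasts, also from Prrx-Cre mice, covered PPF and PNF at embryonic days E16.5 and E18.5 and postnatal days P1 and P30. Those libraries played no part in choosing the leukocytes.

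Skin holds several resident leukocyte populations. Dermal γδ T cells carry a T cell receptor of γ and δ chains, and many of them produce interleukin 17. Dendritic cells take up antigen, display it on MHC class II molecules and, once they express the chemokine receptor Ccr7, travel to lymph nodes. Mast cells store proteases and histamine in granules, whereas neutrophils enter skin from the blood, mostly after injury. Of the 7 genes of the rule, Ptprc encodes the phosphatase CD45 on all nucleated blood cells, Coro1a an actin-binding coronin, Cd52 a small glycosylated surface peptide and Laptm5 a lysosomal membrane protein of haematopoietic cells. Tyrobp and Fcer1g encode signalling adaptors of activating receptors, and Cd74 encodes the invariant chain that escorts MHC class II.

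Tube 1 held 158 leukocytes among 18374 kept barcodes, or 0.860% (95% exact Clopper-Pearson interval 0.731% to 1.00%). Tube 2 held 53 among 4779, or 1.11% (0.832% to 1.45%). The intervals of the tubes overlap. Leukocytes were the shallower barcodes: their median was 2082 UMIs in tube 1 against 2722 in the other kept barcodes, and 2727 against 4494 in tube 2. The tubes had 42 barcode sequences in common, none of which belonged to a leukocyte. In tube 1, 84 barcodes had exactly 3 of the 7 genes and lay just inside the rule, whereas 106 had exactly 2 and lay just outside. In tube 2 these numbers were 21 and 32. Barcodes just outside resembled those inside in antibody label, as described below.

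The 7 genes set the members apart by construction, and their levels are given as a description. Cd52 had a UMI in 140 of the 158 leukocytes of tube 1 and 42 of the 53 of tube 2, at 1055 and 955 CPM (counts scaled to a fixed total per library). Coro1a was found in 122 and 36 cells and Laptm5 in 105 and 42. Ptprc had a UMI in 81 cells (51.3%) of tube 1 and 31 cells (58.5%) of tube 2, against 0.231% and 0.402% of the other kept barcodes. Cd74 was concentrated in fewer cells, with a UMI in 41 and 12 leukocytes but the highest level of the 7, 1671 and 1580 CPM. Prrx1 had a UMI in 39.2% of the leukocytes of tube 1 and 35.8% of those of tube 2, against 73.6% and 82.5% of the other kept barcodes. Its level was 343 CPM (exact Poisson interval 289 to 404) against 613 CPM in tube 1, and 254 CPM (189 to 335) against 561 CPM in tube 2.

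The antibody counts gave a readout that the rule had not used. The feature names of the hashtags carry the clone names of an antibody to MHC class I and of one to CD45, the protein encoded by Ptprc, so a cell with CD45 on its surface offers an additional target. The median hashtag count per barcode was 510 in the leukocytes of tube 1 and 148 in the other kept barcodes, a ratio of 3.44. In tube 2 the medians were 1225 and 305, a ratio of 4.02. Of the leukocytes, 156 of 158 in tube 1 and 50 of 53 in tube 2 lay above the median of the other barcodes of their tube. Barcodes with exactly 2 of the 7 genes also carried many antibodies, with medians of 416 in tube 1 and 1276 in tube 2, whereas those with 1 gene had medians of 173 and 369. With 1 library per tube these ratios have no replicate test, but they were above 3 in each tube separately.

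Fibroblast RNA was present in nearly every leukocyte barcode. All but 1 of the 211 had at least 3 of 6 fibroblast genes (Col1a1, Col1a2, Col3a1, Dcn, Lum and Pdgfra). These 6 genes made up a median of 2.13% of UMIs in the leukocytes of tube 1 and 8.96% in the other barcodes, and 2.72% against 7.31% in tube 2. The ratio of Col1a1 to Col3a1, both fibrillar collagen chains, was 0.734 in the leukocytes and 0.756 in the others of tube 1, and 1.18 and 1.37 in tube 2. The ratio of Dcn to Col3a1 was 0.614 and 0.560 in tube 1, and 0.759 and 0.896 in tube 2. Fewer leukocytes than other barcodes carried 2 hashtags: 30.4% (23.3% to 38.2%) against 54.7% in tube 1, and 9.43% (3.14% to 20.7%) against 68.5% in tube 2. A second hashtag is counted where it has at least 10 counts and more than 1/3 of the first. The median second hashtag count was higher in leukocytes, at 59.5 against 27 in tube 1 and 70 against 58 in tube 2. The share also depends on the top hashtag count, which was higher in leukocytes. It is therefore not read as a share of doublets. No doublet caller was run. Free RNA in the droplets and barcodes holding a leukocyte together with a fibroblast cannot be told apart for a single barcode, and the part of either in the fibroblast RNA was not tested.

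**Figure D1:**
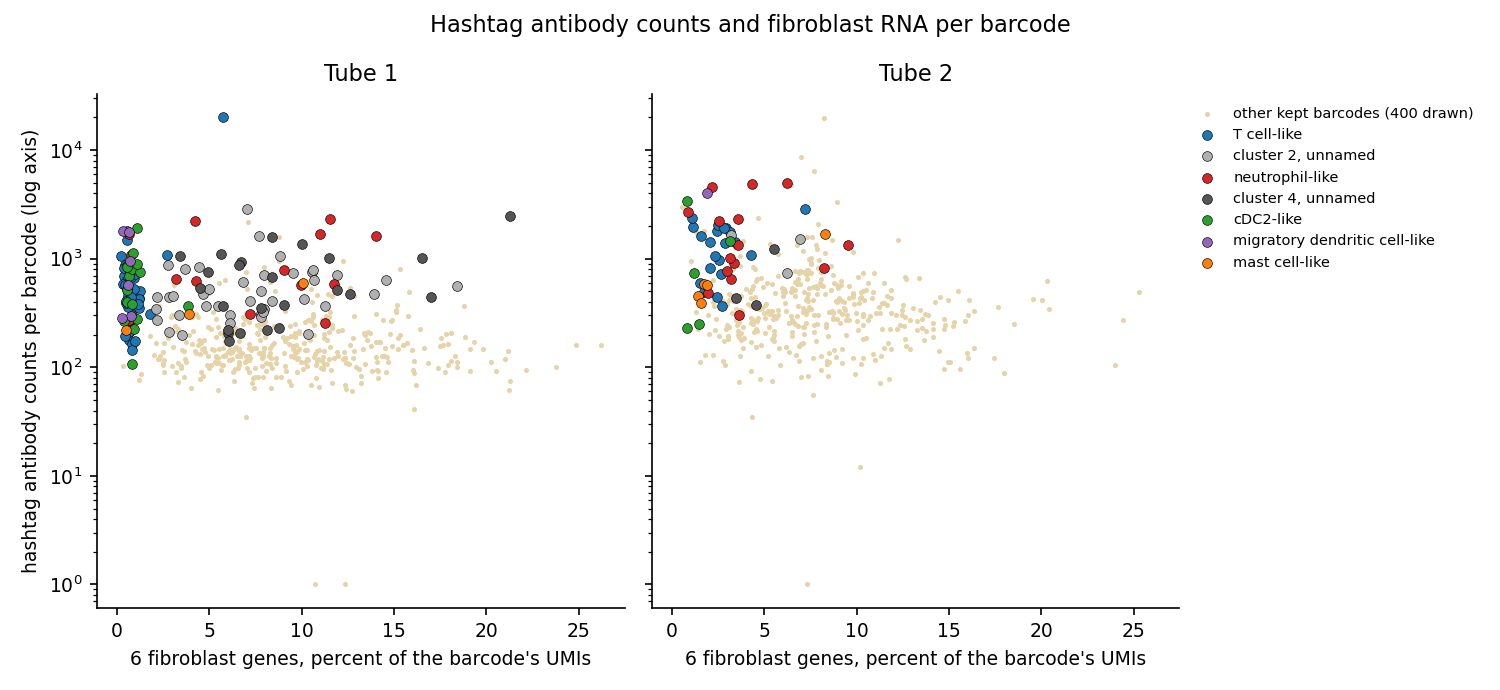
Each point is a barcode, with the share of its UMIs in 6 fibroblast genes on the x axis (percent) and its hashtag antibody counts on the y axis (log axis, with 0 drawn at 1). Coloured points are all leukocytes by cluster, and pale points are 400 of the other kept barcodes per tube. The leukocytes lie above most other barcodes in each tube, with medians of 510 against 148 and 1225 against 305 counts. The T cell-like, cDC2-like and migratory dendritic cell-like cells lie at the left edge.

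Among 13836 genes with at least 10 UMIs in each tube, 477 (3.45%) were at least 4-fold higher in leukocytes in both tubes, and 0 (0.0%) were at least 4-fold lower. For a lower fold, the leukocyte count was taken as at least 3 UMIs. A gene scarce in the other barcodes could therefore not be called lower, so the 0 is not the counterpart of the 477. Since the cells were chosen by genes of the same barcodes, these folds are a description without a test. The 118 genes of the leukocyte marker lists had 66 members with enough UMIs, of which 48 (72.7%) were at least 4-fold higher in both tubes. The median over those 66 of the smaller of both folds was 36.2, against 1.0 over all genes examined, but a marker that reached 10 UMIs did so mainly through the leukocytes.

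S100a8 and S100a9, which encode both chains of the calcium-binding protein calprotectin, stood at 2369 and 1746 CPM in the leukocytes of tube 1 and at 5461 and 5938 CPM in those of tube 2. In the other barcodes both stayed under 10 CPM. The MHC class II genes H2-Aa and H2-Eb1 were 253-fold and 262-fold higher in tube 2, and 405-fold and 266-fold higher in tube 1. Ctss, a cathepsin that trims the invariant chain, was 275-fold and 265-fold higher. Ccr2, the receptor that monocytes follow into tissue, was 199-fold and 282-fold higher. Spi1, which encodes the transcription factor PU.1 of myeloid cells, rested on 24 UMIs in tube 1 and 17 in tube 2, and was 231-fold and 173-fold higher. The leading gene by fold was Napsa, an aspartic protease, with 22 and 16 UMIs in leukocytes and only 1 and 3 in all other barcodes, too few to give its fold closely. Arhgap30, Myo1g, Cd48, Bcl2a1b, Ifitm6, Cd209d and Mgl2 completed the leading 15.

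The genes that leaned the other way, among those with at least 50 CPM in the other barcodes, did so by smaller folds. Col12a1, a collagen of fibril surfaces, was 2.91-fold and 5.46-fold lower in leukocytes, and the contractile genes Tagln and Acta2 were 3.61-fold and 4.61-fold lower in tube 1 and 3.85-fold and 2.79-fold lower in tube 2. Cxcl13, a chemokine for B cells, was 4.20-fold and 3.45-fold lower. Ptx3, a secreted pentraxin, was 3.0-fold and 4.20-fold lower, and the imprinted gene Peg3 2.71-fold and 5.46-fold lower. Opcml, Igfbp3, Rassf8 and Tmem47 filled the remaining places. Opcml, Igfbp3 and Rassf8 were each between 2.55-fold and 3.54-fold lower. Tmem47 was 2.59-fold lower in tube 1. In tube 2 it had 1 UMI in leukocytes (5.08 CPM against 61.1 CPM), so its 4.01-fold there is set by the floor of 3 counts.

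Clustering split the 211 leukocytes into 7 groups, of which 5 could be named from marker lists. The largest was T cell-like, with 53 cells (33.5%, 26.2% to 41.5%) in tube 1 and 21 cells (39.6%, 26.5% to 54.0%) in tube 2. Neutrophil-like cells numbered 14 (8.86%, 4.93% to 14.4%) and 15 (28.3%, 16.8% to 42.4%), with intervals that do not overlap between tubes. The cDC2-like cluster had 17 and 5 cells, the mast cell-like cluster 3 and 5, and the migratory dendritic cell-like cluster 7 and 1. The remaining 70 cells fell into 2 clusters that were left unnamed because their leading genes did not point to a single leukocyte type. Clusters were made from the same genes that describe them, so the genes below carry no test, and the names hold only as far as the listed markers do.

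**Figure D2:**
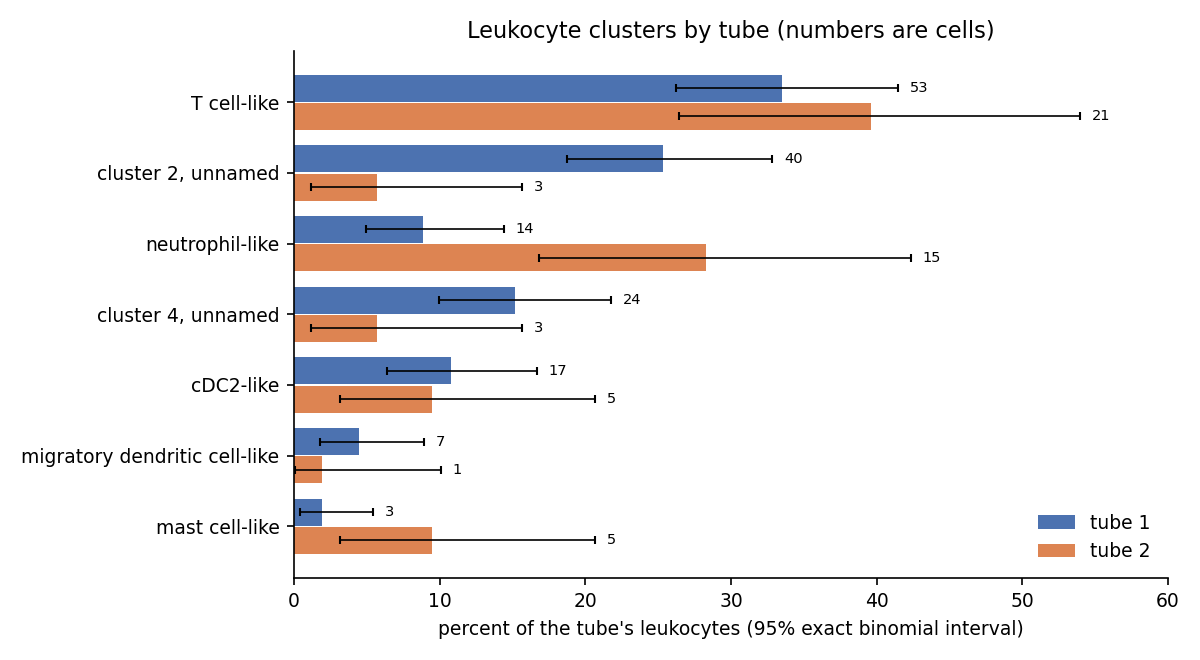
Bars give the share of each tube's leukocytes in each cluster (percent), lines the 95% exact binomial interval, and numbers the cells. The T cell-like cluster is the largest in each tube (53 and 21 cells), and the neutrophil-like share is 8.86% in tube 1 and 28.3% in tube 2.

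The T cell-like cells carried constant-region genes of several T cell receptor chains. Trdc, the constant region of the δ chain, had a UMI in 41 of the 74 cells with 255 UMIs in all, whereas Trac, the constant region of the α chain, had a UMI in 12 cells with 20 UMIs. Trbc1 and Trbc2, the constant regions of the β chain, had 41 UMIs in 19 cells and 57 UMIs in 35. Any of the γδ genes Trdc, Trdv4 and Tcrg-C1 was detected in 50 cells and any of Trac, Trbc1 and Trbc2 in 43, and 29 cells had both kinds. A Cd3 chain, part of the signalling unit of both receptor types, was found in 52 cells. Genes of interleukin 17-producing γδ T cells were present: Cd163l1, a scavenger receptor, in 28 cells and Il17a in 12. The chemokine receptor Cxcr6 was found in 50 cells with 120 UMIs, Ccr6 in 12 cells, and the transcription factor Maf in 40. Itgae, the integrin chain CD103 of T cells lodged in epithelia, was found in 18 cells and its partner Itgb7 in 27. Cd4 had a UMI in 3 cells and Cd8a in 1.

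Several T cell genes were at or near 0. Foxp3, the factor of regulatory T cells, had no UMI in any leukocyte, although Il2ra was found in 11 T cell-like cells and Ctla4 in 4. The natural killer cell genes Ncr1, Eomes and Gzma had none either, and Gzmb had 1 UMI. The natural killer cell list as a whole was not at 0. Of its 8 genes, 5 had a UMI in leukocytes, with 45 UMIs in all. In the T cell-like cluster 4 of them had 27 UMIs. At a median of 1025 UMIs per T cell-like barcode in tube 1 and 2499 in tube 2, an undetected gene in a single cell was not evidence that the cell lacked it. Mki67, a gene of dividing cells, had a UMI in 10 of the 74 cells and Top2a, a topoisomerase of dividing cells, in 7. Fibroblast genes stood in this cluster at 9.99% of their level in other barcodes in tube 1 and at 34.5% in tube 2.

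The neutrophil-like cluster was defined by S100a8, with 2049 UMIs in 24 of 29 cells, and S100a9, with 1885 UMIs in 23. Retnlg, a neutrophil resistin-like protein, was found in 12 cells, the receptor Csf3r in 11 and Cxcr2 in 5. The granule genes of immature neutrophils were held by few cells: Camp, a cathelicidin, had 169 UMIs in 2 cells and Ngp 183 UMIs in 4. Inflammatory mediators were abundant in the same cluster. Cxcl2, a neutrophil-attracting chemokine, had 1051 UMIs in 26 cells, Il1b, which encodes interleukin 1β, 437 UMIs in 26 cells, and Ccl3 and Ccl4, chemokines for monocytes and T cells, 104 UMIs in 15 cells and 121 UMIs in 14. Il1b had 30 UMIs in cluster 4 and 55 in the cDC2-like cluster. Fibroblast genes stood at 79.8% of their level in other barcodes in tube 1 and at 63.5% in tube 2.

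The 22 cDC2-like cells were the main holders of MHC class II RNA. H2-Ab1 had 268 UMIs in 16 of them, H2-Aa 244 in 17 and H2-Eb1 196 in 14. The lectin genes Cd209a and Mgl2 and the lectin Clec10a, which mark type 2 conventional dendritic cells, had 34 UMIs in 6 cells, 18 in 4 and 18 in 4. Markers of monocytes and macrophages were in the same cells: Lyz2, which encodes lysozyme, in 15, Ccr2 and Ms4a6c in 13 each and Plac8 in 12. Over these cells the macrophage list summed to 4634 CPM and the monocyte list to 2928 CPM, above the 1601 CPM of the cDC2 list. The name cDC2-like is therefore only a label, and these cells were not told apart from monocytes or macrophages. Adgre1, which encodes the macrophage protein F4/80, had 4 UMIs in 4 cells and Flt3, the growth factor receptor of dendritic cells, had none. Fibroblast genes stood at 10.7% and 13.7% of their level in other barcodes.

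The 8 migratory dendritic cell-like cells shared Ccl22, a chemokine for regulatory and memory T cells, with 47 UMIs in 7 cells. Ccr7 had 13 UMIs in 6 of them and the actin-bundling gene Fscn1 21 UMIs in 6. Ccl17 and Ccl5, further T cell chemokines, had 19 UMIs in 4 cells and 32 in 7. Their H2-Eb1 count was 39 UMIs in 6 cells. Langerhans cells were not seen as a group, since Cd207, which encodes langerin, had no UMI in any leukocyte.

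In the mast cell-like cluster Cpa3, a granule carboxypeptidase, had 303 UMIs in all 8 cells, and the granule proteases Mcpt4, Cma1 and Tpsb2 had 469, 432 and 354 UMIs in 7 cells each. Hdc, which makes histamine, had 177 UMIs in 8 cells, Mrgprb1, a receptor for secretagogues, 44 in 7, and Il1rl1, the receptor for interleukin 33, 40 in 7. Kit, the stem cell factor receptor, was found in 6. Ptprc had a UMI in 4 of them and Cd52 in 1, so most entered through Fcer1g, Laptm5 and Tyrobp.

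The first unnamed cluster, numbered 2, held 40 cells in tube 1 and 3 in tube 2. T cell genes were present beside fibroblast genes: Trdc in 22 of its 43 cells, Cd3g in 20 and Cxcr6 in 20, with Col1a1, Col1a2, Col3a1 and Dcn in all 43. Fibroblast genes stood at 75.2% of their level in other barcodes in tube 1. Its leading genes were Gzmc, with 89 UMIs in 3 cells, and Reg1, with 59 UMIs in 1, so the cluster's lead rested on few cells. The second, numbered 4, held 24 and 3 cells and mixed macrophage and MHC class II genes with the fibroblast genes. Lyz2 was found in 14 of its 27 cells, C1qb in 7, C1qc in 6 and Mrc1, the mannose receptor, in 6, whereas its leading genes Ccl24 and Pf4 came from 2 cells and 1 cell and stood beside Ptn and the fibroblast collagen gene Col12a1. Median depth was 3882 UMIs in cluster 2 and 4282 in cluster 4 of tube 1, which was 143% and 157% of the median of the other barcodes. Of the 70 cells of the unnamed clusters, 45.7% carried 2 hashtags, against 14.9% of the 141 cells of the named clusters. The named clusters were not alike in this: 4 of the 8 mast cell-like cells (50%, 15.7% to 84.3%) carried 2 hashtags, and fibroblast genes stood there at 78.8% of their level in other barcodes in tube 1 and at 54.5% in tube 2. Summed over cells, a high level of fibroblast RNA was shared by clusters 2 and 4 with the neutrophil-like and mast cell-like clusters. Such sums weigh deep barcodes most. The deepest mast cell-like cells, with 7230 UMIs in tube 1 and 8790 in tube 2, had 10.1% and 8.27% in fibroblast genes. The other mast cell-like cells had 0.505% to 3.90%, below the medians of other barcodes (8.96% and 7.31%). Neutrophil-like cells ranged from 0.655% to 14.0% in tube 1 and from 0.865% to 9.52% in tube 2.

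**Figure D3:**
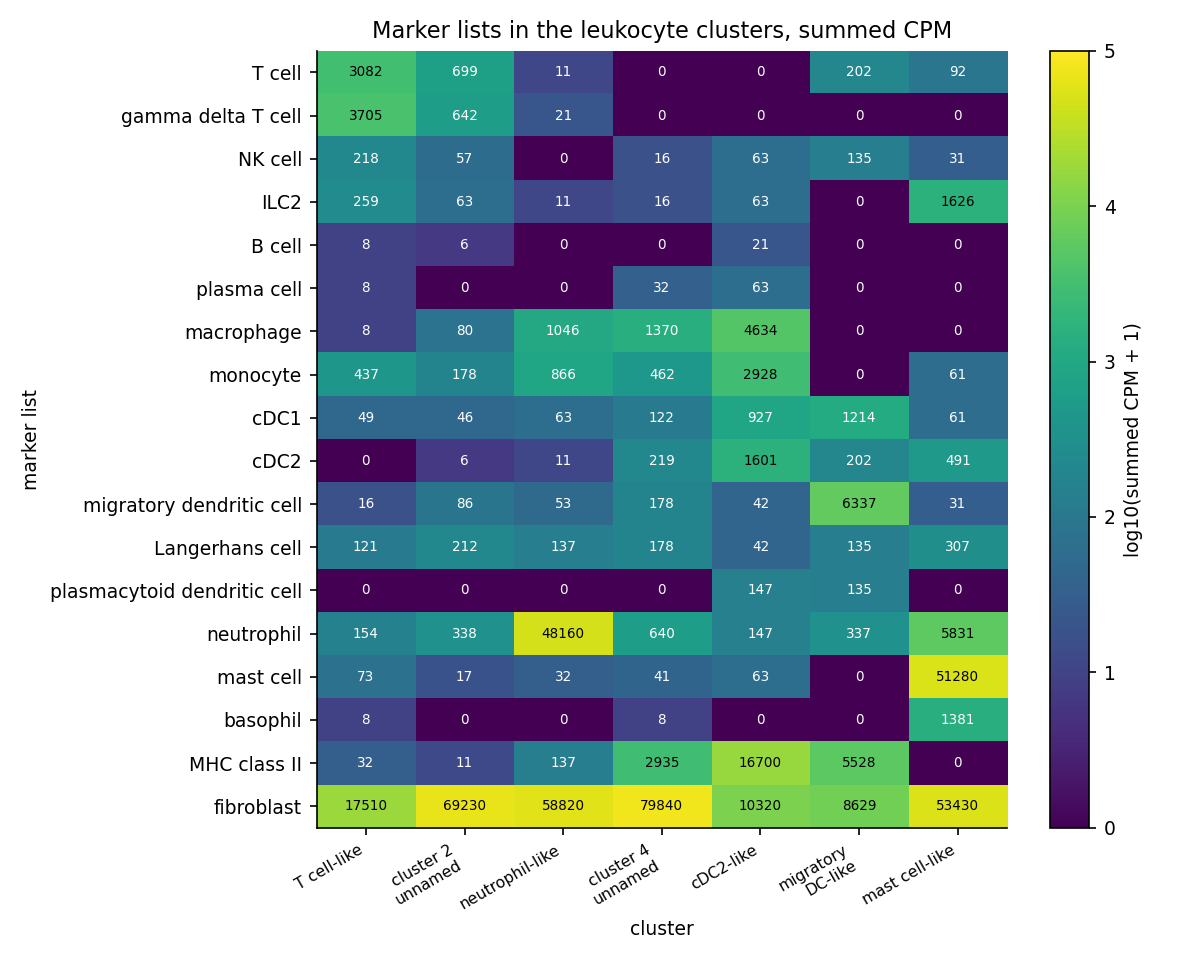
Each cell of the grid gives the summed CPM of a marker list (rows) over the barcodes of a leukocyte cluster (columns), coloured on a log10 scale. The T cell and γδ T cell lists are highest in the T cell-like cluster, the neutrophil list reaches 48160 CPM in the neutrophil-like cluster and the mast cell list 51280 CPM in the mast cell-like cluster, while the fibroblast list is 53430 CPM or more in 4 of the 7 clusters.

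B cells and plasma cells were close to the limit of detection. Over all 211 leukocytes the 6 B cell genes had 3 UMIs in all and the 5 plasma cell genes 8, and Ms4a1, Pax5, Igkc and Jchain had none. Of the other cell types of skin, 6 keratinocyte genes had 29 UMIs, 6 endothelial genes 11, 6 pericyte and smooth muscle genes 48 and 6 Schwann genes 36. The summed Schwann level in leukocytes was 4.12 times that of the other barcodes in tube 1 and 1.12 times in tube 2, and the endothelial level 2.44 and 4.85 times. The defining keratinocyte genes Krt14 and Krt1, the endothelial genes Cdh5 and Cldn5 and the pericyte gene Rgs5 had no UMI. The plasmacytoid dendritic cell list had 9 UMIs, of which Siglech gave 5 in 4 cDC2-like cells.

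Further lists described what the leukocytes could send and receive. Within a single tube, 6.96% of 14861 genes with at least 10 UMIs in tube 1, and 6.78% of 13984 in tube 2, were at least 4-fold higher in leukocytes than in the other barcodes. Of 12 chemokine and cytokine genes, 10 in tube 1 and 9 in tube 2 were. Il1b stood at 391 CPM against 2.44 CPM in tube 1 and at 1864 CPM against 3.29 CPM in tube 2. Of 10 growth factor and matrix ligand genes, 2 in tube 1 and 1 in tube 2 were. Tgfb1, the fibrogenic cytokine, stood at 111 CPM against 32.2 CPM in tube 1 and 55.9 CPM against 37.1 CPM in tube 2, and Igf1, insulin-like growth factor 1, at 348 against 511 CPM and 203 against 261 CPM. Areg, an epidermal growth factor receptor ligand, stood at 65.2 CPM in tube 1 against 0.556 CPM, with 18 of its 32 UMIs in 1 migratory dendritic cell-like cell. Of the 6 integrin genes, 5 in tube 1 and 6 in tube 2 were at least 4-fold higher. As with the marker lists, a gene with few UMIs in fibroblasts could reach 10 UMIs mainly through the leukocytes.

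The promoters of H2-Aa and H2-Eb1 are shown because these genes moved together in the cDC2-like and migratory dendritic cell-like clusters. MHC class II promoters also share known elements. Of the 6 MHC class II list genes, 4 had a RefSeq promoter entry (build GRCm38.p6), H2-Ab1 and Ciita being without one. The letters CTGATTGG, the core of the Y box, to which the factor NF-Y binds, were searched on both strands of the 250 bases before each start. They were found in 2 of the 5 windows of those 4 genes and in 3.83% of all 32851 windows. The match lies 51 to 44 bases before the start of H2-Aa (chr17:34287824-34287943, minus strand) and 62 to 55 bases before that of H2-Eb1 (chr17:34305747-34305866, plus strand). The 120 bases before each start are printed 5′ to 3′ with the match in capitals. A match of letters is not evidence that a factor binds there.
H2-Aa: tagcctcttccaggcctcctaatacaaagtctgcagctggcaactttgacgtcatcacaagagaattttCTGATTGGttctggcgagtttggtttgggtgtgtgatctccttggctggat
H2-Eb1: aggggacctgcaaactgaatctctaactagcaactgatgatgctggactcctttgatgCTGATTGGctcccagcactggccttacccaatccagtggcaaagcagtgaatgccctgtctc

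Hashtag calls differed between leukocytes and other barcodes. Hashtags 1 to 6 had nearly all antibody counts, at least 272152 each per tube, whereas hashtags 7 to 10 had at most 4268, although the design text names 8 samples. A barcode was called for 1 hashtag where it had at least 10 counts of it and at least 3 times those of the next. In tube 1, 110 leukocytes and 8170 other barcodes were called, and in tube 2, 48 and 1457. Hashtag 4 took 77.5% of the called other barcodes of tube 1 and 53.2% of those of tube 2, but only 4 and 2 of the called leukocytes. Of the barcodes called for hashtag 4, 0.0631% (0.0172% to 0.162%) in tube 1 and 0.257% (0.0312% to 0.927%) in tube 2 were leukocytes. Hashtag 5 lay at the other end: 43 of 161 called barcodes (26.7%, 20.1% to 34.2%) in tube 1 and 12 of 55 (21.8%, 11.8% to 35.0%) in tube 2 were leukocytes. The intervals of hashtags 4 and 5 do not overlap in either tube. For hashtag 6 the share was 9.28% in tube 1 and 3.28% in tube 2, and for hashtag 3 it was 5.00% and 12.3%. The antibody counts behind the calls differed less for hashtag 4, with a median of 50.5 counts in leukocytes and 54 in others of tube 1, and 61 and 79 in tube 2. For hashtag 5 the medians were 60.5 and 7 counts in tube 1, and 40 and 23 in tube 2. The median top hashtag count was 341 in leukocytes and 75 in others of tube 1, and 893 and 124 in tube 2. The calls are therefore not read as membership of a pooled sample, and the shares hold for called barcodes only.

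**Figure D4:**
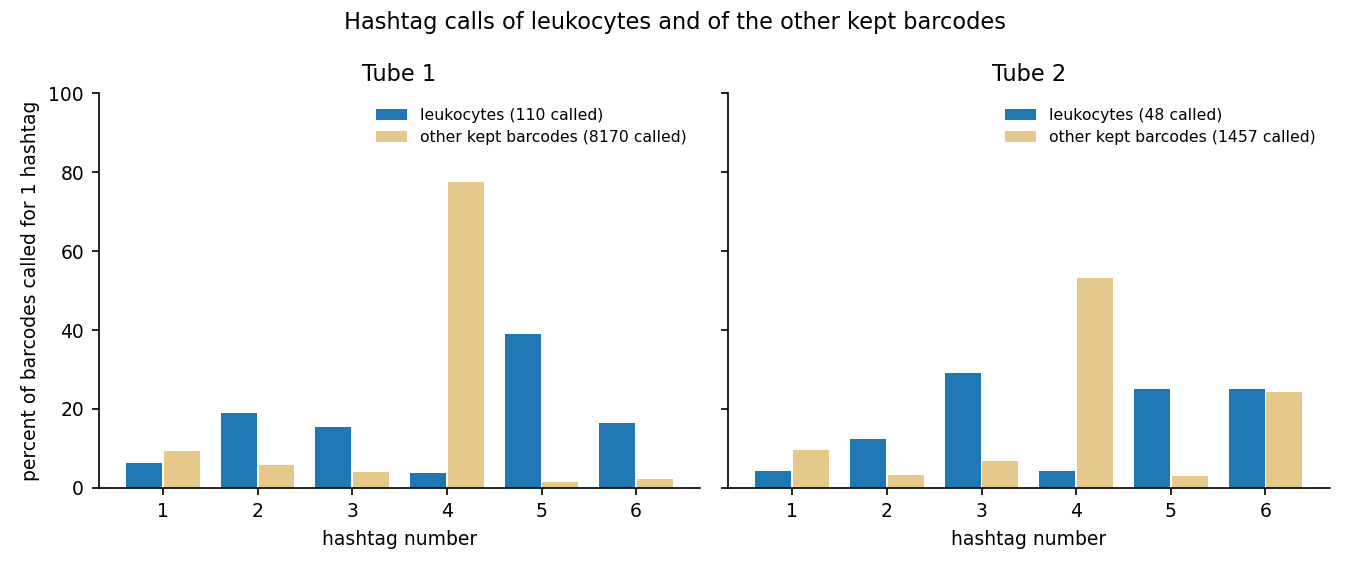
Bars give the share (percent) of barcodes called for each of hashtags 1 to 6, among the called leukocytes (blue) and the called other barcodes (tan) of each tube. Hashtag 4 holds 77.5% and 53.2% of the other barcodes, while hashtag 5 holds 39.1% and 25% of the leukocytes.

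By cluster, the calls were as follows. Of the called T cell-like cells, 27 of 45 in tube 1 and 9 of 20 in tube 2 carried hashtag 5. Of the called neutrophil-like cells, 5 of 10 in tube 1 carried hashtag 2, and 9 of 14 in tube 2 carried hashtag 3. Hashtag 5 was called for 1 neutrophil-like cell of tube 1 and 0 of tube 2. The called cDC2-like cells, 15 and 5 in number, were spread over 5 and 3 hashtags.

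Between the leukocytes of the 2 tubes, 28 of 1566 genes (1.79%) were at least 4-fold higher in tube 2 and 14 (0.894%) at least 4-fold lower. With 1 library a tube these are differences between libraries, without a test. Cxcl2 stood at 4917 CPM in the leukocytes of tube 2 and at 391 CPM in those of tube 1, and it also differed between the other barcodes, at 419 and 56.0 CPM. Slpi, a protease inhibitor, was 15.7-fold higher, Retnlg 13.1-fold, the lectin receptor Clec4e 12.5-fold, Acod1, which makes itaconate, 11.9-fold, the receptor Hcar2 10.2-fold, the inflammasome gene Nlrp3 8.42-fold and Hdc 8.32-fold. Neutrophil-like cells were 28.3% of leukocytes in tube 2 and 8.86% in tube 1, and mast cell-like cells 9.43% and 1.90%. The part of this makeup in the gene differences was not tested. The neutrophil granule genes went the other way: higher in tube 1 were Camp and Ngp, whose UMIs came from 3 and 2 cells of that tube, Ltf from 2 cells, Gzmc from 4 and Reg1 from 1. Ptn, Spon2 and Itm2a, spread over 23 to 40 cells of tube 1, were also higher in the other barcodes of tube 1 than in those of tube 2.

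The bulk libraries allowed a comparison of leukocyte RNA between PPF and PNF. Prrx1, for which the groups are named, had a median of 54.7 CPM in PPF (22.6 to 133) and 39.1 CPM in PNF (0 to 104), with a log2 fold change of 0.65 (edgeR, adjusted p = 0.694). Library totals ran from 4264657 to 17190154 counts in genes. Nothing in the labels says that libraries of a group came from separate animals, so p-values here speak only of spread among libraries. Of the 7 rule genes, Fcer1g, Tyrobp and Cd52 passed the filter on low counts. Coro1a had 40 counts and Laptm5 46 counts in all 24 libraries together, each in PNF only, and Ptprc and Cd74 had 0. The counts were made per transcript, and 16.0% of the exonic bases of Cd74 and 56.2% of those of Ptprc lie in a single annotated transcript, against 14.7% for Tyrobp, which had 6460 counts. The 0 of Ptprc and Cd74 is therefore given as listed, and its cause was not tested. S100a9 was likewise at most 0.443 CPM in any bulk library, whereas S100a8 reached 2290 CPM, although single-cell leukocytes of both tubes held both genes. A low bulk value of a gene is thus not read here as absence of its RNA. Fewer leukocytes and less RNA per leukocyte cannot be told apart in bulk RNA.

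Fcer1g stood at 175 and 120 CPM in the PNF libraries at E16.5 and at 2.69 and 2.22 CPM in the PPF libraries. At E18.5 the PNF libraries had 345, 12, 22.9 and 50.0 CPM and both PPF libraries 0. At P1 the groups overlapped, with 15.6, 40.5, 29.0 and 14.5 CPM in PNF and 47.7 and 16.6 CPM in PPF. At P30 the PNF libraries had 101 and 25.1 CPM, whereas the highest of 6 PPF libraries had 2.66 CPM and the median was 0. Every PPF library thus lay below every PNF library at 3 of the 4 ages. Averaged over the ages, the log2 fold change of Fcer1g was −6.26 (SE 1.08, edgeR quasi-likelihood test, adjusted p = 0.0102).

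Tyrobp, whose protein pairs with receptors in myeloid and natural killer cells as Fcer1g does, followed the same order. Its PNF libraries had 112 and 75.8 CPM at E16.5, between 12.4 and 365 CPM at E18.5, between 12.2 and 31.6 CPM at P1, and 174 and 24 CPM at P30. The PPF libraries reached 1.48 CPM at E16.5, 0.146 CPM at E18.5 and 8.22 CPM at P30, but had 30.8 and 17.2 CPM at P1. The log2 fold change was −5.70 (SE 1.14, edgeR, adjusted p = 0.0204). Cd52 was lower in PPF by a log2 fold change of −6.02 (SE 1.17, edgeR, adjusted p = 0.0189), from 0.347 to 195 CPM in PNF and from 0 to 5.41 CPM in PPF. Leaving out any 1 of the 6 PPF libraries at E16.5, E18.5 or P1 ended all 3 calls, with adjusted p (edgeR) from 0.0907 to 0.145 for Fcer1g, up to 0.237 for Tyrobp and up to 0.196 for Cd52.

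**Figure D5:**
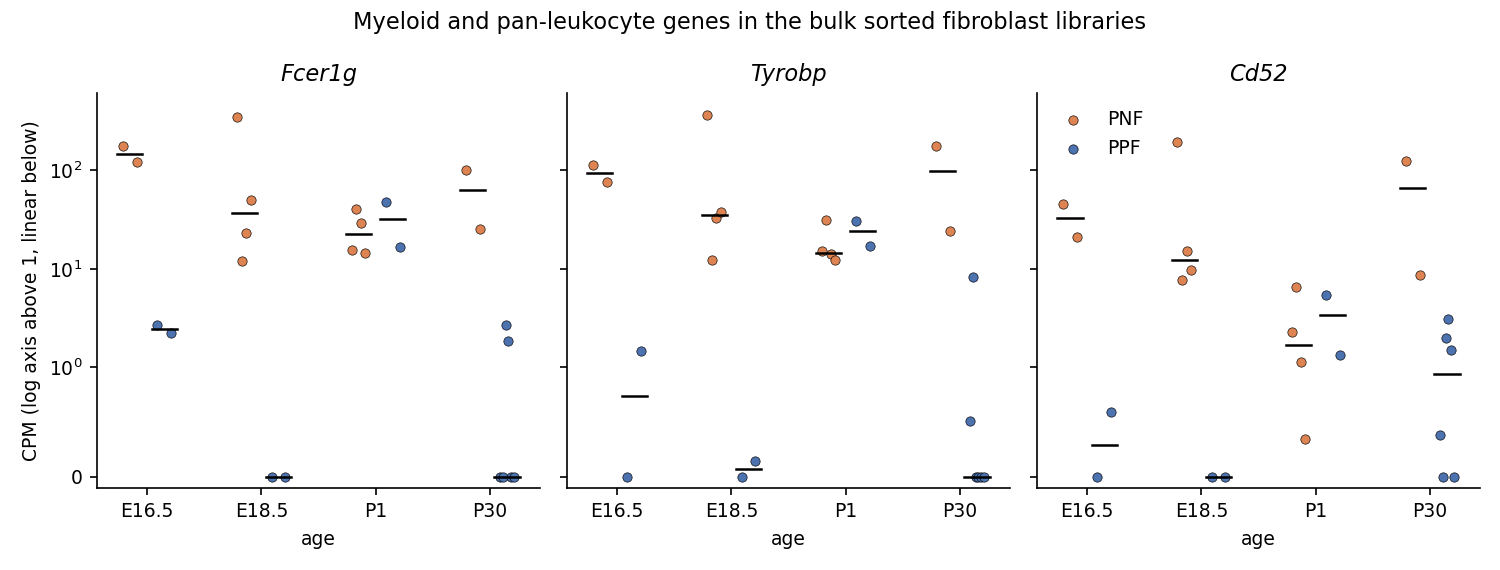
Points are bulk libraries, with CPM on the y axis (log above 1, linear below) and age on the x axis. PNF libraries are orange and PPF libraries blue, and black lines are group medians. PPF lies below PNF at E16.5 and E18.5 and at P30 for Fcer1g, Tyrobp and Cd52, and the groups overlap at P1.

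Of the 125 rule and leukocyte list genes, 70 passed the filter and 55 did not. Among those 70, 12 fell in PPF and 0 rose (edgeR), where 0.591% of all 15559 genes fell and 0.0836% rose. At an unadjusted p under 0.05, 48 were lower and 0 higher, and DESeq2 called 26 lower and 0 higher. Their median log2 fold change was −4.02, against −0.14 over all genes tested. A list gene that passed the filter through the PNF libraries alone had to be lower in PPF, so this count is a description. Besides the 3 rule genes, those that fell were Cpa3, Mcpt4 and Tpsb2 of mast cells, Hdc, Ngp and S100a8 of the neutrophil list, Lyz2, Ifitm6 of monocytes and Prss34, a basophil protease. Hdc is also a mast cell gene and was detected in all 8 mast cell-like cells. Of the 12, Cpa3 and Tpsb2 kept their call when any 1 of the 24 libraries was left out.

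Of the T cell list, 9 of 10 genes passed the filter and 0 fell or rose at the threshold, while 6 were lower at an unadjusted p under 0.05 (edgeR) and DESeq2 called 3 lower. The PNF medians of its 10 genes lay between 0 and 4.14 CPM. Single PNF libraries reached 161 CPM of Cd3e, 63.6 CPM of Trbc2, 26.2 CPM of Trac and 18.8 CPM of Lat. In PPF these genes reached at most 2.04, 13.4, 7.24 and 6.43 CPM. Lck and Cd8a went the other way, reaching 1.70 and 0.109 CPM in PNF and 2.31 and 0.383 CPM in PPF. For Cd3e the log2 fold change had an SE of 8480 (edgeR), so its size is not read. Tcrg-C1, a γ chain gene, reached 88.2 CPM in PNF and 1.18 CPM in PPF. Cd3g reached 49.9 CPM and Cd3d 19.7 CPM in PNF library A at E18.5, against at most 2.74 and 1.79 CPM in any other library. That library is 1 of the 2 erythroid-rich libraries described below. H2-Aa was at most 1.73 CPM in all 24 libraries. Other cell types moved in the same comparison: of the 6 keratinocyte genes 5 fell, with a median log2 fold change of −5.79, and of the 6 Schwann genes 2 fell, with a median of −4.62, while the 6 fibroblast genes had a median of 1.08 and no call, 3 of them with an unadjusted p under 0.05 (edgeR). Of the 6 erythroid genes 5 passed the filter, with 0 calls, all 5 lower at an unadjusted p under 0.05 (edgeR) and a median of −3.68. Erythroid genes held 43.0% of the counts of PNF library A at E18.5 and 44.6% of those of PNF library A at P30, which had counts in 6508 genes and 0 of Prrx1. Without these 2 libraries 17 leukocyte genes were lower, but Lyz2 and Ifitm6 lost their call (edgeR, adjusted p = 0.0507 and 0.0578), and Ngp moved from −10.19 to −7.27 and Cd52 from −6.02 to −4.71. The part of other cell types in the leukocyte result was not tested.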

How the data were processed

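The deposited single-cell matrices hold UMI counts for 31053 genes and 10 hashtag features in 33086 barcodes; per the file headers they were written by a 10x pipeline of version 3.1.0, and per the submitters' processing notes the build is mm10 and Seurat 3.2 and 3.1.1 were used. The bulk files hold the authors' read counts per transcript (featureCounts, per the deposited files' names), which were summed here to genes of GENCODE M21. The members and gene lists were chosen with earlier results of these data known. Barcodes were kept and members chosen as the report states. Summed UMIs per tube were scaled to CPM, and folds used a floor of 3 counts on the lower side. Members were clustered with Leiden (leidenalg 0.10.2) on 2000 variable genes, 20 principal components, 15 neighbours and resolution 1. Clusters were named only from the marker lists, but a name did not require the highest list sum. The cDC2-like cluster had 1601 CPM of the cDC2 list, 2928 CPM of the monocyte list and 4634 CPM of the macrophage list. Bulk PPF and PNF were compared over 24 libraries with edgeR 4.0.16 (quasi-likelihood test, TMM scaling, filterByExpr, Benjamini-Hochberg adjustment over all genes tested, threshold 0.05), without a replicate term. DESeq2 1.42.0 was an alternative. Named genes were the rule genes, Prrx1, the 15 most raised and 10 most lowered genes with at least 50 CPM in both tubes, 5 leading genes per cluster, up to 4 genes per list by level or by bulk p, and up to 8 per direction between tubes with at least 100 CPM. Others named, among them undetected markers, were chosen after their values were seen. On simulated counts the single-cell rule recovered 193 of 200 genes raised 8-fold among 13689, with 17 false calls.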

Additional observations from a re-analysis of the deposited data

Results flagged for a closer look

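In groups of 4 to 10 bulk libraries, a library was set apart where its gap to the next exceeded the Dixon limit at 95%. That limit gives about 1 in 20 for independent, normally distributed values. The sets examined here share libraries, and the summed set includes the single genes, so that rate does not apply. Of 12 sets of values examined, 6 had such a library. The PNF library A at E18.5 was high in 4 of them: 195 CPM of Cd52 (7.64 to 15.0 CPM in the other 3), 345 CPM of Fcer1g (12 to 50.0), 365 CPM of Tyrobp (12.4 to 37.8) and 15700 CPM over all rule and leukocyte list genes (1530 to 3890). This library had 43.0% of its counts in 6 erythroid genes, and PNF library A at P30 had 44.6%, with counts in 6508 genes. Without both libraries the log2 fold change was −4.71 for Cd52 (edgeR, adjusted p = 0.0223), −5.49 for Fcer1g (0.00768) and −4.70 for Tyrobp (0.0235). Tyrobp was also high in PNF library B at P1, at 31.6 CPM against at most 15.2, and in PPF library B at P30, at 8.22 CPM against at most 0.511.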

How the results depend on the processing

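The leukocyte share of tube 1, 0.860%, was 1.17% and 0.650% with at least 300 and 1000 genes per barcode, 1.07% with at most 5% mitochondrial UMIs, 1.44% and 0.403% with at least 2 and 4 of the 7 genes, 0.323% after thinning to 1000 UMIs, 1.32% without barcodes carrying 2 hashtags, 0.00549% without members holding 3 of 6 fibroblast genes and 0.512% without the unnamed clusters, the last chosen after the data were seen. The share of tube 2, 1.11%, was 1.78% and 0.670% with at least 2 and 4 genes, 0.609% thinned, 3.13% without barcodes carrying 2 hashtags and 0.0% without members holding fibroblast genes. That last setting left 1 and 0 members, so it gave no count of raised genes. The 477 raised genes became 159 with at least 50 UMIs. At resolution 0.5 there were 4 clusters instead of 7. The mast cell-like cells then lay with cluster 2 in a cluster of 54 cells. Most cDC2-like and cluster 4 cells, and the 8 migratory dendritic cell-like cells, lay in a cluster of 53. Those 3 named clusters were thus not separate at that setting. At resolution 2 there were 9 clusters, and the largest part of the 74 T cell-like cells in 1 cluster was 39. The 12 bulk leukocyte genes lower in PPF became 26 with DESeq2, 32 without a filter and 7 with the library letter as a replicate block; leaving out 1 library gave 2 to 17, the lowest values, 2 to 4, when a PPF library at E16.5, E18.5 or P1 was left out. Over all genes, the 92 lower in PPF became 672 with DESeq2, 398 without a filter, 26 with the block, 287 without the 2 erythroid-rich libraries and 2 to 207 without 1 library. The causes were not tested. Deviations from the group mean correlated at −0.027 to 0.079 between PPF and PNF libraries of 1 letter and age. In a group of 2 libraries the deviations mirror each other. These values therefore cannot show whether libraries of 1 letter share an origin. With DESeq2, 3 of the 12 had no adjusted p and the others kept their call. Depth limits what single barcodes show: after thinning, 58 of 130 leukocytes of tube 1 and 29 of 53 of tube 2 still met the rule.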

Other observations

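The regulatory T cell list, of which Foxp3 had no UMI, still had 100 UMIs in the leukocytes, and Ikzf2 was found in 17 of the 74 T cell-like cells. Of the type 2 innate lymphoid cell list, Gata3 was found in 14 T cell-like cells, and 5 T cell-like cells had Gata3, Il13 or Il5 without any T cell receptor or Cd3 gene. Il13 had 9 UMIs in 5 of the 8 mast cell-like cells.

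Spp1, which encodes osteopontin, had 43 UMIs in 6 neutrophil-like cells, out of 70 UMIs in all leukocytes. Il1r2, a decoy receptor counted among neutrophil genes, had 52 UMIs in 25 cells of cluster 2, 60 in 19 cells of cluster 4 and 60 in 20 neutrophil-like cells. These counts are not scaled to depth, and the median UMIs per barcode were 3884, 4410 and 2056 in these clusters. In the bulk fibroblast libraries Il1r2 reached 1930 CPM in PPF and 172 CPM in PNF, with medians of 228 and 2.45 CPM. These values mix the ages, since P30 holds 6 PPF and 2 PNF libraries. With each age weighted equally, the log2 fold change from PNF to PPF was −1.66 (edgeR, adjusted p = 0.564). At 2 ages every PPF library lay below every PNF library. Its source in clusters 2 and 4 was not tested.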
